A study of Mus musculus with 19 samples.

Results

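The comparison described here set livers of mice that received AN1284 at 1 mg/kg/day against livers of mice that received saline, all of them on a Western diet (WD). Its members were defined by treatment and diet labels, although earlier results of these data were known. They comprise 7 of the 19 liver RNA libraries of the study, 3 from WD saline and 4 from WD AN1284 1 mg, and every gene of the table. Each library was taken as 1 mouse. Both groups were male C57BL/6 mice (C57BL/6JOlaHsd) fed for 4 months on the WD, which was rich in fat, sucrose, fructose and cholesterol and low in choline. In both groups a pump was implanted under the skin under ketamine and xylazine anesthesia after 2 months of feeding, replaced a month later, and delivered saline or AN1284 for the last 2 months, so that the diet, the anesthesia and the surgery were common to treated and control mice. The normal diet (ND) groups, ND saline and ND AN1284 1 mg with 3 livers each, are used below as a level of reference and to test whether the response differed between the diets. The libraries hold poly-A RNA of whole liver, and in such tissue fewer cells of a type and less RNA per cell cannot be told apart. This holds for every cell type marker described.

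A diet high in fat, sugar and cholesterol and low in choline produces steatohepatitis in mice, in which lipid-laden hepatocytes are injured and lose part of their specialised work (urea synthesis, amino acid breakdown, secretion of plasma proteins, sterol disposal). Stellate cells, which normally store vitamin A, then deposit collagen, duct-like cells expand around the portal tracts, and monocytes enter from the blood and become lipid-handling macrophages beside the resident Kupffer cells. AN1284 is an indoline derivative with anti-inflammatory activity. The question of the comparison was how hepatic gene expression differed when the lower of the study's dose levels was given to mice that had already been fed the WD.

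Counted reads ranged from 23443573 to 32189581 in the 7 libraries. All values below are read counts normalized for depth by the authors, called normalized counts, and they are not corrected for gene length, so that they are compared between livers and never between genes. Replicates are listed in the order 1 to 3 for saline and 1 to 4 for treated livers. Albumin and the other hepatocyte markers were abundant in every library. One treated liver lay nearer to the saline group than the others did. The root mean square log2 distance of WD AN1284 1 mg replicate 1 to the 3 saline livers was 0.643 to 0.748, against 0.73 to 0.919 for replicates 2 to 4, 0.381 to 0.485 among saline livers and 0.48 to 0.67 among treated livers. Main counts are therefore also given without this liver.

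With AN1284 1 mg, 1520 of 14743 genes tested were higher (10.3%) and 1856 were lower (12.6%) than with saline on the WD, at an adjusted p under 0.05 in limma. Falls were larger than rises: the median log2 fold change was 0.65 among genes that rose and -0.97 among genes that fell, and 396 genes rose but 900 fell by more than 1 log2 unit. Among the 500 genes with the highest mean normalized count, 185 rose and 39 fell. Normalized counts of the treated and the saline livers did not overlap for 91.4% of the genes that passed and for 33.2% of all genes tested. Without treated replicate 1, 1785 genes were higher and 2079 lower. Without saline replicate 1, 954 genes were higher, and without saline replicate 3, 972 were higher and 1204 lower. The split between rises and falls depended on the scaling. When the counts were scaled by library totals, the median of all genes moved from 0.01 to -0.23, 720 genes were higher and 4056 lower, and 15.1% of the genes that passed had risen, against 45.0% with the authors' scaling. Below, each group of genes is read against the shares of all genes, 10.3% higher and 12.6% lower, and the median of 0.01.

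**Figure D1:**
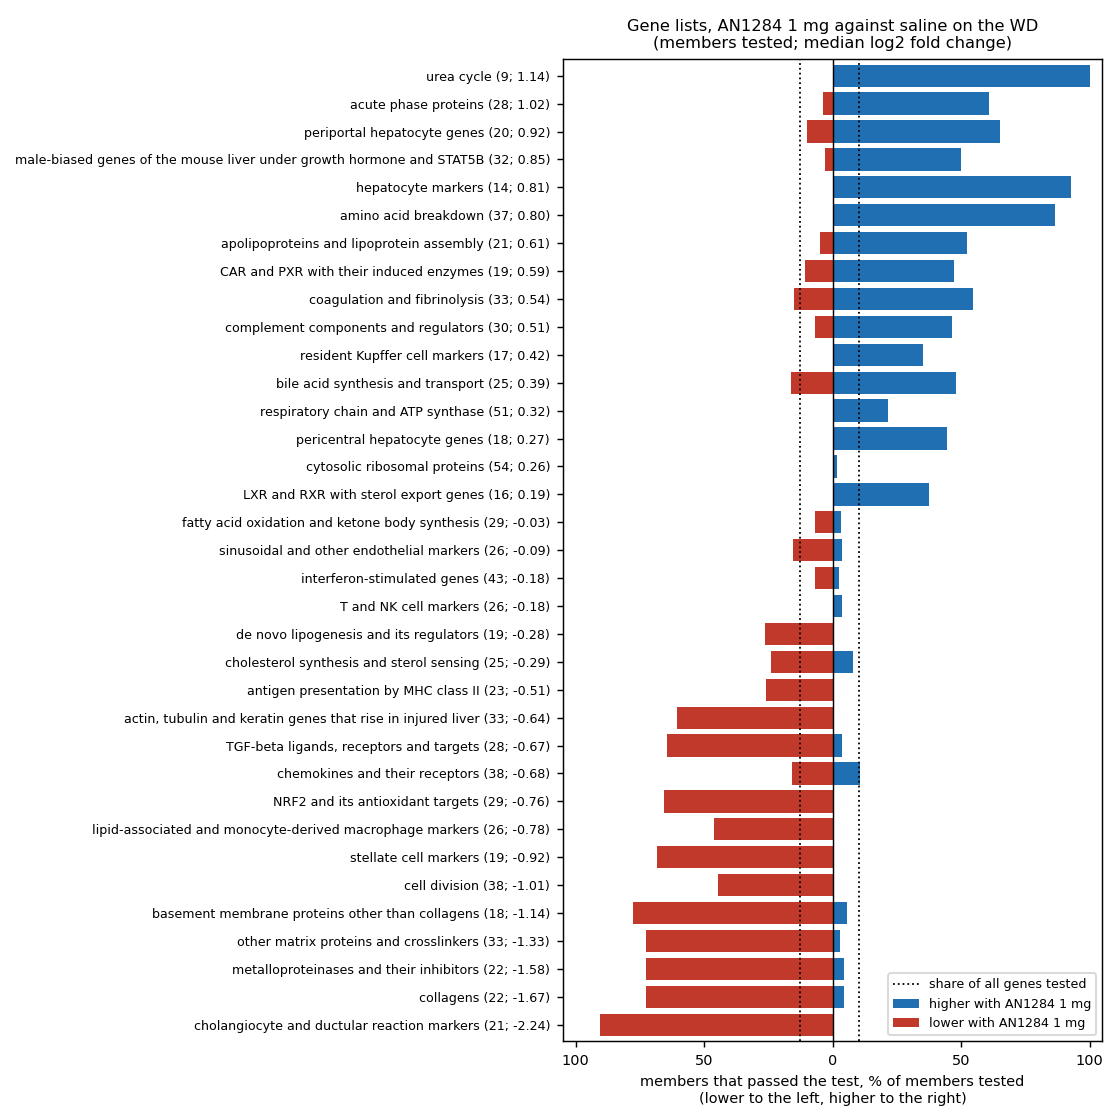
Share of each gene list that passed the test in WD AN1284 1 mg against WD saline (n = 4 and 3), with members higher to the right and members lower to the left, as a percentage of members tested. The dotted lines mark 10.3% higher and 12.6% lower for all 14743 genes. Urea cycle and hepatocyte lists lie to the right, and collagen, metalloproteinase and cholangiocyte lists lie to the left.

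Genes by which hepatocytes dispose of nitrogen were higher with AN1284 1 mg. Of the urea cycle and its transporters, 9 of 9 rose and 0 fell (median log2 fold change 1.14), and of the enzymes of amino acid breakdown 32 of 37 rose and 0 fell (median log2 fold change 0.80). Without treated replicate 1 the urea cycle had 8 higher and 0 lower (median 1.2) and amino acid breakdown 32 higher and 0 lower (median 0.86). Cps1, the mitochondrial enzyme that commits ammonia to the urea cycle, had normalized counts of 18846, 28981 and 24713 in the saline livers and 72304, 54552, 78747 and 52795 in the treated livers, without overlap (log2 fold change 1.42 ± 0.19 SE, adjusted p = 3.4e-05). Its level was 97918 ± 21420 (SD, n = 3) in ND saline livers, above the treated livers by the mean. Otc, the next enzyme of the cycle, differed by 0.95 (adjusted p = 4.6e-05) on the log2 scale, and Nags, which makes the activator that Cps1 requires, by 0.75 (adjusted p = 8.6e-05). Ass1 and Asl, the enzymes that make argininosuccinate and split it, were chosen after their values were seen and rose by 1.14 and 1.15 log2 units.

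Enzymes that break down single amino acids were among the rises. Hal, which deaminates histidine, had normalized counts of 915, 1532 and 510.3 in the saline livers and 5873, 6944, 8008 and 6088 in the treated livers (log2 fold change 2.90 ± 0.27 SE, adjusted p = 1.7e-06), and the ND saline level was 9091 ± 389. Sds, which converts serine to pyruvate, had normalized counts of 938, 1110 and 427 in the saline livers and 3940, 4928, 5417 and 7166 in the treated livers (log2 fold change 2.78 ± 0.26 SE, adjusted p = 1.7e-06), a 6.50-fold difference of the group means. Both are periportal enzymes, and of the periportal list 13 of 20 rose and 2 fell (median log2 fold change 0.92), with 1 fall left in 6 of the 7 fits that left out a liver. Every treated liver was above every saline liver for both genes. Hpd, of tyrosine breakdown, rose by 1.71 (adjusted p = 1.6e-06), Haao, of the tryptophan pathway, by 0.98 (adjusted p = 8.3e-05), and Mat1a, which makes S-adenosylmethionine, by 0.72 (adjusted p = 3.1e-04), all on the log2 scale. Pck1, the rate-limiting enzyme of glucose production from amino acids and lactate, differed by 1.44 (adjusted p = 1.0e-04), while over the whole list of glucose production and glycolysis 3 of 26 rose and 4 fell (median log2 fold change -0.17), with 2 falls left without any one of saline replicates 1 to 3 or treated replicate 1 and 10 falls when scaled by library totals. Hk2, a hexokinase that adult hepatocytes hardly use, fell by 1.13 log2 units. Ldha rose by 0.44, a call that was lost without saline replicate 1 or 3 or treated replicate 2 or 4 (without saline replicate 1 log2 fold change 0.42, adjusted p = 0.058).

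Hepatocyte markers as a list moved the same way: 13 of 14 rose and 0 fell (median log2 fold change 0.81). Their summed normalized counts ranged from 1926245 to 2352528 in the saline livers and 3197313 to 3620497 in the treated livers, with no overlap. Cyp2e1, the pericentral ethanol-oxidising P450, rose by 0.94 (adjusted p = 7.8e-05), and among pericentral genes 8 of 18 rose and 0 fell (median log2 fold change 0.27). Alb itself rose less (log2 fold change 0.53 ± 0.16 SE, adjusted p = 0.027) and did not pass without saline replicate 1 or 3 or treated replicate 2 (without saline replicate 1 log2 fold change 0.46, adjusted p = 0.10). Of the transcription factors that define hepatocytes, 4 of 22 rose and 1 fell (median log2 fold change 0.16), with 2 rises left without saline replicate 3 or treated replicate 4 or when scaled by library totals, and 0 falls without saline replicate 2. Foxa3 rose by 1.05 (adjusted p = 7.0e-05) and Hnf4a, the central regulator of the mature hepatocyte, by 0.66 (adjusted p = 1.0e-04). Cebpa rose by 0.46 but did not pass without saline replicate 3 or treated replicate 4 (log2 fold change 0.37, adjusted p = 0.10 without saline replicate 3).

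Genes under male growth hormone pulses and the transcription factor STAT5B were among the rises. Of this list 16 of 32 rose and 1 fell (median log2 fold change 0.85), and Stat5a, chosen after its value was seen, was the member that fell, a call lost without saline replicate 3 (log2 fold change -0.59, adjusted p = 0.055). Several are major urinary protein genes, near-identical copies between which the authors' counting could misplace reads, so their single values are uncertain. Mup11 had normalized counts of 756, 1481 and 492 in the saline livers and 5570, 11340, 24124 and 20245 in the treated livers (log2 fold change 4.01 ± 0.53 SE, adjusted p = 8.6e-05). Mup12 had normalized counts of 17.5, 64.3 and 18.9 in the saline livers and 97.6, 168, 790.3 and 474 in the treated livers (log2 fold change 3.29 ± 0.72 SE, adjusted p = 0.0043). The treated livers were the higher group for both. Mup3, Mup9, Mup16, Mup17 and Mup18 rose by 2.12, 3.58, 4.02, 4.32 and 3.37 log2 units. Slco1a1, an organic anion uptake carrier of the male liver, had normalized counts of 1401, 3929 and 2279 in the saline livers and 5445, 6689, 9130 and 6268 in the treated livers (log2 fold change 1.54 ± 0.27 SE, adjusted p = 5.1e-04). The ND saline mean of Slco1a1 was 11503 ± 1858, and that of Mup11 41288 ± 10660, so that both remained below the ND level in treated livers by their means. Of the female-biased list 2 of 12 rose and 3 fell (median log2 fold change -0.17), but the list had 0 rises and 0 falls without saline replicate 3 and 1 of each without treated replicate 4, and its median was 0.01 without treated replicate 1 or 2. Cyp2a4, a steroid hydroxylase of this list, fell by 2.73 log2 units but lost its call without saline replicate 1 or 3 or treated replicate 3 or 4 (without saline replicate 3 log2 fold change -2.69, adjusted p = 0.075).

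Plasma proteins that hepatocytes secrete were higher as well. Of the acute phase list 17 of 28 rose and 1 fell (median log2 fold change 1.02), with median log2 differences from the saline mean of 0.54, -0.23 and -0.27 in the saline livers and 0.94, 1.26, 1.04 and 0.84 in the treated livers. Saline replicate 1 was thus the highest saline liver. Without treated replicate 1 the list had 16 higher and 1 lower (median 1.03), but only 11 and 10 rose without saline replicates 2 and 3. Hamp encodes hepcidin, the hormone that blocks iron release from cells, and is driven by BMP and interleukin-6 signals. It had normalized counts of 2267, 2625 and 1428 in the saline livers and 12255, 10323, 12887 and 17293 in the treated livers, a 6.26-fold difference of the means (log2 fold change 2.67 ± 0.34 SE, adjusted p = 4.7e-05). The ND saline level was 7500 ± 1493, below each of the treated livers. Saa4, a constitutive serum amyloid, rose by 2.1 (adjusted p = 4.5e-05), and Il6ra, the receptor subunit that binds interleukin-6, by 1.52 (adjusted p = 2.5e-06). Hpx, which binds heme, rose by 0.97 but did not pass without saline replicate 2 or 3 or treated replicate 2 (log2 fold change 0.83, adjusted p = 0.097 without saline replicate 3). Among other iron genes, Tfr2, a sensor of transferrin in hepatocytes, rose by 0.70 (adjusted p = 1.7e-04), the zinc and iron importer Slc39a14 by 0.98 (adjusted p = 4.8e-05), and the transferrin receptor Tfrc fell by 0.71 log2 units, which did not pass without saline replicate 3 (log2 fold change -0.52, adjusted p = 0.06).

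Interleukin-6 acts through STAT3, whose sites have the letters TTCNNNGAA. In the RefSeq promoter windows of GRCm38.p6 (250 bases before to 50 bases after each start), these letters, which read the same on both strands, were found in 8.3% of all 32851 windows. Counted by gene, with a match at any start, they were in 8.51% of the genes tested, in 9.48% of those that rose and in 7.91% of those that fell. They were in 8 of the 23 acute phase genes with a window. Hamp (chr7:30943980-30944279, minus strand) and Fga (chr3:83025903-83026202, plus strand), which encodes a fibrinogen chain, are shown because they rose and hold the letters, and were picked after their values were seen. Capitals mark the match, which begins at position -97 in Hamp and -234 in Fga, counted from the start.
Hamp: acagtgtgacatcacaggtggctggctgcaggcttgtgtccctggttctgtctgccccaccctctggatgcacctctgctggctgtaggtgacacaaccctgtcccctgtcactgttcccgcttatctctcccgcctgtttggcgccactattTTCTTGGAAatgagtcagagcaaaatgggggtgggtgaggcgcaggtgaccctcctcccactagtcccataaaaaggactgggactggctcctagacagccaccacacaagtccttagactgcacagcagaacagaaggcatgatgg
Fga: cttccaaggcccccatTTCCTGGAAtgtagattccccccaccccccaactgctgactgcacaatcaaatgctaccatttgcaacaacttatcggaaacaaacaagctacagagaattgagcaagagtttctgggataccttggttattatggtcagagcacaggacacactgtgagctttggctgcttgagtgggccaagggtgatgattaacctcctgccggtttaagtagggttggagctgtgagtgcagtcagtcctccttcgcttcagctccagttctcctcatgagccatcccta
A match of letters is a description of the sequence and not of binding.

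Genes of clotting moved in both directions. Of the coagulation and fibrinolysis list 18 of 33 rose and 5 fell (median log2 fold change 0.54). The fibrinogen chain Fga differed by 1.05 (adjusted p = 2.5e-04) and Fgg by 1.2 (adjusted p = 6.4e-05), F7, which starts the extrinsic pathway, by 1.51 (adjusted p = 4.0e-07), and F10 by 0.89 (adjusted p = 8.0e-06). Plg, the circulating precursor of plasmin, had normalized counts of 40529, 41579 and 34560 in the saline livers and 69316, 74180, 82414 and 73089 in the treated livers (log2 fold change 0.94 ± 0.11 SE, adjusted p = 1.2e-05), and its plasma inhibitor Serpinf2 rose by 1.09 (adjusted p = 3.4e-06). Among the members that fell were the plasminogen activators Plat and Plau, the urokinase receptor Plaur and Anxa2, a membrane protein that gathers plasminogen. Anxa2 had normalized counts of 4937, 5629 and 5387 in the saline livers and 1391, 895, 1114 and 1335 in the treated livers (log2 fold change -2.19 ± 0.22 SE, adjusted p = 3.6e-06) and 342 ± 68.8 in ND saline livers. Plat, Plau and Plaur were chosen after their values were seen and fell (log2 fold changes -2.95, -2.04 and -1.83).

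Complement genes of hepatocyte origin were also among the rises: of the list 14 of 30 rose and 2 fell (median log2 fold change 0.51), and 9 rose when scaled by library totals. The 2 that fell, C5ar1 and C3ar1, are receptors on myeloid cells and were chosen after their values were seen. C8b, a chain of the membrane attack complex, had normalized counts of 1519, 1564 and 927 in the saline livers and 5326, 4987, 5882 and 5888 in the treated livers (log2 fold change 2.08 ± 0.17 SE, adjusted p = 4.0e-07). All 4 treated livers lay above the saline livers. C1ra, Mbl1 and Serping1, of complement activation and its restraint, rose by 0.60, 0.60 and 0.79 log2 units, while C3, on which all routes of activation converge, gave a log2 fold change of 0.43 (adjusted p = 0.21).

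The genes of the biliary sterol pump rose, from a level in WD saline livers that was already above that in ND saline livers. Abcg5 and Abcg8 form the pump by which hepatocytes move cholesterol into bile, and they are targets of the oxysterol receptor LXR. Abcg5 had normalized counts of 1705, 1970 and 1779 in the saline livers and 4897, 3201, 5105 and 4671 in the treated livers (log2 fold change 1.28 ± 0.16 SE, adjusted p = 2.7e-05), against 1118 ± 140.4 in ND saline livers. Abcg8 had normalized counts of 2203, 2500 and 2257 in the saline livers and 6833, 4562, 7243 and 6604 in the treated livers (log2 fold change 1.42 ± 0.17 SE, adjusted p = 1.3e-05), against 1694 ± 340.2. The treated livers did not overlap with either saline group for these genes, and the comparison with the ND was not tested. Nr1h3, which encodes LXRα, rose by 0.61 (adjusted p = 3.9e-04), its partner Rxra by 0.60 (adjusted p = 1.2e-04) and the HDL receptor Scarb1 by 0.62 (adjusted p = 2.7e-04). Of the whole list of LXR, RXR and sterol export 6 of 16 rose and 0 fell (median log2 fold change 0.19). Srebf1, a direct LXR target that drives fatty acid synthesis, had a log2 fold change of 0.00 (adjusted p = 0.996).

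The 2 genes lie head to head, and the window of Abcg8 (chr17:84682871-84683170, plus strand) is shown because it holds the starts of both, 110 bases apart. Capitals mark the stretch from the Abcg5 start at 84683011, which is read on the minus strand, to the Abcg8 start at 84683121.
Abcg8: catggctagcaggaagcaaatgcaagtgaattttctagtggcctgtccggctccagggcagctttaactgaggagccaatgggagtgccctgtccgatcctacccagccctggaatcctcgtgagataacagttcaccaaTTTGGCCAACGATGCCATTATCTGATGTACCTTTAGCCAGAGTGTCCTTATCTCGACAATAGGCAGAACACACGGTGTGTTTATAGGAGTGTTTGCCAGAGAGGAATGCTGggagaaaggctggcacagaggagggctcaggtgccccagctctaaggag
No peak or methylation data were analysed here, so the sequence gives the arrangement of the pair only.

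Of genes of bile acid synthesis and transport 12 of 25 rose and 4 fell (median log2 fold change 0.39), with 2 falls left without saline replicate 3 and 7 rises when scaled by library totals. The uptake carriers Slc10a1 and Slco1a1 rose by 0.96 (adjusted p = 8.6e-05) and 1.54 (adjusted p = 5.1e-04), and Slc27a5 and Amacr, which activate and reshape bile acid side chains, by 0.95 (adjusted p = 1.9e-04) and 0.62 (adjusted p = 3.3e-04). The members that fell were the basolateral exporters Slc51b, Abcc3 and Abcc4 and the phospholipid pump Abcb4. Of these, chosen after their values were seen, Abcb4 and Abcc4 fell (log2 fold changes -0.54 and -1.38). Slc51b fell by 1.5 log2 units but did not pass without saline replicate 2 or 3 (log2 fold change -1.33, adjusted p = 0.07 without replicate 3), and the fall of Abcc3 passed only when no liver or treated replicate 3 was left out.

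Lipoprotein genes rose in number, but Apoa4 fell. Of the apolipoprotein list 11 of 21 rose and 1 fell (median log2 fold change 0.61). Apoa4, which hepatocytes produce when they are loaded with triglyceride, had normalized counts of 78988, 129255 and 102094 in the saline livers and 16324, 18273, 28446 and 35451 in the treated livers (log2 fold change -2.11 ± 0.26 SE, adjusted p = 2.3e-05), and 7502 ± 1538 in ND saline livers. The saline livers had 4.20 times the mean of the treated livers. Lcat, which esterifies cholesterol on HDL, rose by 0.82 (adjusted p = 1.8e-05), and Apom, the carrier of sphingosine 1-phosphate, by 1.04 (adjusted p = 2.2e-04). The hepatokines Ahsg and Fetub rose by 0.90 and 0.98 log2 units.

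Genes of fatty acid synthesis fell in part, and few genes of fatty acid oxidation moved. Of de novo lipogenesis 5 of 19 fell and 0 rose (median log2 fold change -0.28). Fasn, the fatty acid synthase, had normalized counts of 74875, 60862 and 66424 in the saline livers and 18433, 32016, 34963 and 19207 in the treated livers (log2 fold change -1.42 ± 0.33 SE, adjusted p = 0.0053). Elovl6, which elongates its product, fell, with a log2 fold change of -1.47 (adjusted p = 4.9e-04), Acaca with -1.0 (adjusted p = 6.4e-04) and Scd2 with -1.45 (adjusted p = 3.5e-04), while Scd1, the abundant desaturase of adult liver, gave a log2 fold change of -0.26 (adjusted p = 0.41). In fatty acid oxidation and ketone synthesis 1 of 29 rose and 2 fell (median log2 fold change -0.03), shares below those of all genes. These counts depended on the scaling, since 11 of 19 lipogenesis genes and 11 of 29 oxidation genes fell when scaled by library totals. The 2 that fell were Pdk4, the kinase that turns pyruvate dehydrogenase off, and Fgf21, a stress hormone of hepatocytes. Pdk4 had normalized counts of 1565, 1277 and 1923 in the saline livers and 203, 350.1, 273 and 236 in the treated livers (log2 fold change -2.59 ± 0.20 SE, adjusted p = 2.9e-07), with 455 ± 96.7 in ND saline livers, and Fgf21 had normalized counts of 306, 453 and 509 in the saline livers and 38.6, 116, 52.4 and 140.2 in the treated livers (log2 fold change -2.43 ± 0.57 SE, adjusted p = 0.0054). The saline livers were the higher group in both genes, without overlap.

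Of lipid droplet coats and lipases 3 of 21 rose and 4 fell (median log2 fold change -0.12), with 2 falls left without saline replicate 1 or treated replicate 2, and of fatty acid uptake and binding 3 of 19 rose and 5 fell (median log2 fold change -0.01), while 10 and 8 fell when scaled by library totals. The scavenger receptor Cd36 fell, with a log2 fold change of -0.92 (adjusted p = 0.007) and Acsl3, which activates fatty acids at droplets, with -0.92 (adjusted p = 0.0015), whereas Dgat2, of triglyceride synthesis, and Lipe, a lipase, rose by 0.59 and 0.67. In cholesterol synthesis and sterol sensing 6 of 25 fell and 2 rose (median log2 fold change -0.29), and 14 fell when scaled by library totals. Mvd, a decarboxylase of the pathway, fell, with a log2 fold change of -1.14 (adjusted p = 0.0039), and Ebp, a sterol isomerase, rose by 0.94 (adjusted p = 2.6e-05).

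The enzymes that detoxify foreign compounds moved in both directions. Of the genes under the receptors CAR and PXR 9 of 19 rose and 2 fell (median log2 fold change 0.59), with 1 fall left without saline replicate 3 or treated replicate 3 or 4. Cyp2c37 had normalized counts of 1333, 1638 and 868 in the saline livers and 7409, 5231, 7291 and 5166 in the treated livers (log2 fold change 2.32 ± 0.21 SE, adjusted p = 1.0e-06) and Cyp2c50 rose by 1.36 (adjusted p = 9.4e-06). These Cyp2c genes are similar in sequence, and reads may have been shared between them. Sult2a8, a sulfotransferase of male liver that acts on bile acids, had normalized counts of 1892, 3884 and 2600 in the saline livers and 12948, 10568, 16504 and 11770 in the treated livers (log2 fold change 2.25 ± 0.19 SE, adjusted p = 4.9e-07). Of genes under the aryl hydrocarbon receptor 2 of 12 rose and 4 fell (median log2 fold change -0.27), with 2 falls left without saline replicate 3. The summed level of the list was 7990 to 9978 in the saline livers and 10543 to 12514 in the treated livers, without overlap. In ND saline livers it was 30090 to 35568. Cyp1a2 made up most of the sum in the treated livers, so that the sum does not describe the other members. Cyp1a2, a receptor target that adult hepatocytes express at rest, had normalized counts of 3181, 3634 and 4532 in the saline livers and 8655, 7412, 9106 and 8087 in the treated livers (log2 fold change 1.15 ± 0.12 SE, adjusted p = 3.8e-06). The other rise was Pmm1, a phosphomannomutase, by 0.75 (adjusted p = 0.0054). Cyp1a1, the most sensitive target of the receptor, gave a log2 fold change of -0.21 (adjusted p = 0.67), Nqo1 and Gsta1, which NRF2 also controls, fell (log2 fold changes -1.03 and -3.27), and Ahr fell by 0.75 log2 units, a call lost without saline replicate 1 or 3 or treated replicate 2, 3 or 4 (without saline replicate 1 log2 fold change -0.83, adjusted p = 0.062). Upp2, a liver uridine phosphorylase, was among the 12 largest rises and had normalized counts of 142, 352 and 293 in the saline livers and 3499, 1923, 5224 and 3613 in the treated livers (log2 fold change 3.77 ± 0.33 SE, adjusted p = 1.0e-06). The ND saline level of Upp2 was 4336 ± 1563, within the range of the treated livers.

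**Figure D2:**
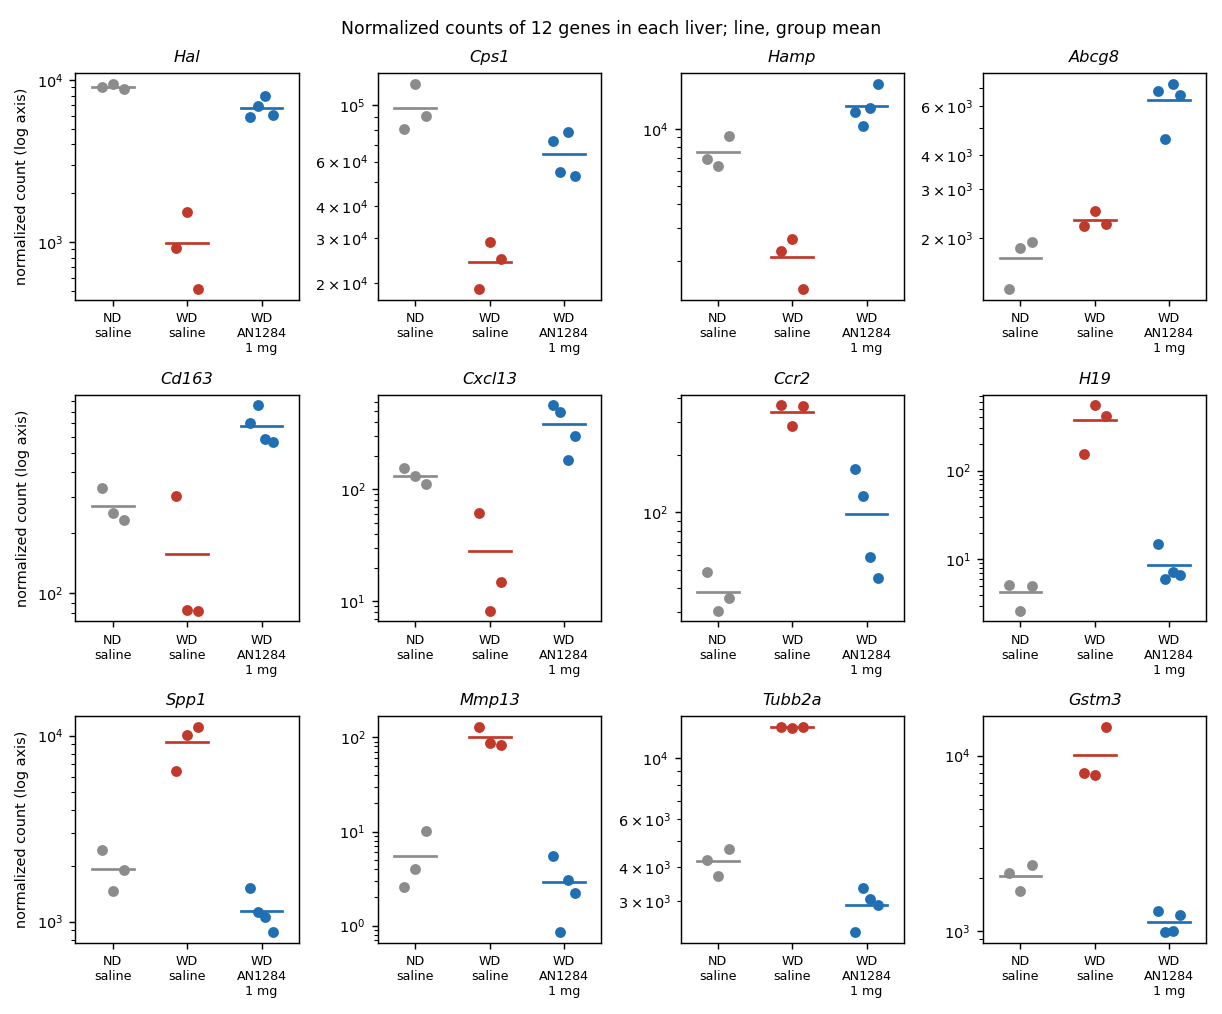
Normalized counts (log axis) of 12 genes in each ND saline (n = 3), WD saline (n = 3) and WD AN1284 1 mg liver (n = 4). Points are livers and lines are group means. WD saline and treated livers do not overlap in any panel, and for Hamp, Abcg8, Cd163 and Cxcl13 all treated livers also lie above all ND saline livers. H19 and Cxcl13 were named by a rule that required no overlap between WD saline and treated livers.

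Targets of NRF2 fell. NRF2 is the transcription factor that answers oxidants and electrophiles by inducing glutathione and NADPH enzymes. Of this list 19 of 29 fell and 0 rose (median log2 fold change -0.76), and per liver the median log2 difference from the saline mean was -0.04, -0.08 and 0.13 in the saline livers and -0.75, -0.81, -0.80 and -0.72 in the treated livers. The groups did not overlap, and replicate 1 was like the other treated livers. Without replicate 1 the list had 1 higher and 18 lower (median -0.80). Gstm3, a glutathione transferase, had normalized counts of 7926, 7761 and 14627 in the saline livers and 1302, 988, 1008 and 1240 in the treated livers (log2 fold change -3.10 ± 0.23 SE, adjusted p = 2.9e-07). Its treated level was also below the ND saline level of 2076 ± 340.2, a comparison that was not tested. Gsta1 had normalized counts of 179, 237 and 323 in the saline livers and 37.0, 22.1, 13.3 and 29.1 in the treated livers (log2 fold change -3.27 ± 0.59 SE, adjusted p = 6.9e-04). Nqo1, a quinone reductase, fell, with a log2 fold change of -1.03 (adjusted p = 0.0017), Gstm1 with -0.90 (adjusted p = 0.0072), Pgd, which makes NADPH, with -0.92 (adjusted p = 6.3e-05), and Txnrd1, thioredoxin reductase, with -0.55 (adjusted p = 1.6e-04). Nfe2l2, which encodes NRF2, was chosen after its value was seen and fell, with a log2 fold change of -0.96 (adjusted p = 6.7e-05). Of all enzymes that remove reactive oxygen 6 of 24 rose and 4 fell (median log2 fold change 0.13), but 1 rose without saline replicate 1 or when scaled by library totals, 2 without saline replicate 3 or treated replicate 3 or 4, and 3 without treated replicate 2, and 7 fell when scaled by library totals. Among them Gpx4, which repairs lipid peroxides, fell, with a log2 fold change of -0.78 (adjusted p = 8.1e-04) and Msrb1, which repairs methionine, rose by 0.73 (adjusted p = 3.7e-04).

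Most matrix genes fell with AN1284 1 mg. Of the collagens 16 of 22 fell and 1 rose (median log2 fold change -1.67), of other basement membrane proteins 14 of 18 fell and 1 rose (median log2 fold change -1.14), of the remaining matrix proteins and crosslinkers 24 of 33 fell and 1 rose (median log2 fold change -1.33), and of metalloproteinases and their inhibitors 16 of 22 fell and 1 rose (median log2 fold change -1.58). Without treated replicate 1 the collagens had 1 higher and 17 lower (median -1.82) and the metalloproteinase list 1 higher and 16 lower (median -1.78). Summed normalized counts of the remaining matrix proteins were nevertheless higher in treated livers (124666 to 138904) than in saline livers (105323 to 115584). The sums of the other matrix lists were lower, for collagens 39247 to 47368 in treated and 49418 to 60940 in saline livers. Such sums follow their most abundant members. Col1a1, the main fibrillar collagen chain of scar, had normalized counts of 2229, 5098 and 4339 in the saline livers and 756, 299, 247 and 192 in the treated livers (log2 fold change -3.51 ± 0.48 SE, adjusted p = 1.1e-04), a 10.4-fold higher mean in saline livers, and 340.5 ± 17.9 in ND saline livers. Treated replicate 1 was the highest treated liver and still below the saline group. Col5a1, which starts collagen fibrils, fell, with a log2 fold change of -1.82 (adjusted p = 1.8e-06), and Col12a1, which decorates them, with -1.67 (adjusted p = 1.2e-05). Serpinh1, the collagen chaperone, fell, with a log2 fold change of -1.72 (adjusted p = 2.8e-05), the laminin chains Lamc1 and Lamb2 with -1.36 and -1.09, and Sparc, which binds collagen, with -1.36 (adjusted p = 1.4e-04). Exceptions among hepatocyte products were Vtn, vitronectin, which rose by 0.97 (adjusted p = 2.9e-05), and Col18a1, whose rise of 0.38 lost its call without saline replicate 1 or 3 or treated replicate 2, 3 or 4 (without saline replicate 3 log2 fold change 0.33, adjusted p = 0.14).

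Spp1, osteopontin, is a secreted matrix protein of duct-like cells and activated macrophages. It had normalized counts of 6450, 10043 and 11193 in the saline livers and 1507, 1122, 1058 and 875 in the treated livers (log2 fold change -3.0 ± 0.35 SE, adjusted p = 1.8e-05), with 1919 ± 484 in ND saline livers. Vcan, the proteoglycan versican, had normalized counts of 63.1, 42.0 and 57.6 in the saline livers and 17.3, 11.9, 8.21 and 5.61 in the treated livers (log2 fold change -2.31 ± 0.52 SE, adjusted p = 0.0033). Mmp13, the interstitial collagenase of mice, had normalized counts of 130.1, 88.2 and 82.0 in the saline livers and 5.51, 0.85, 3.08 and 2.24 in the treated livers (log2 fold change -4.8 ± 0.67 SE, adjusted p = 5.9e-05). The treated livers were close to 0, so that the fitted fold change of Mmp13 depends on the pseudocount. Adamts9 and Adamts1, which cut proteoglycans, fell (log2 fold changes -2.36 and -1.32), and Mmp15, a membrane-bound protease, with -0.82 (adjusted p = 1.8e-05). Timp1, the inhibitor of collagenases, was chosen after its values were seen and had normalized counts of 94.1, 140.1 and 129 in the saline livers and 14.9, 6.80, 9.24 and 8.97 in the treated livers (log2 fold change -3.50 ± 0.56 SE, adjusted p = 2.1e-04).

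Several of the genes that fell, among them Mmp13, Plaur, Anxa2 and the NRF2 target Srxn1, hold the letters TGANTCA of an AP-1 site near their start, and their windows are shown for that reason, chosen after their values were seen. The letters were in 7.81% of all windows, in 6.69% of the genes tested, in 8.17% of those that rose and in 9.33% of those that fell, on either strand. They occurred in 3 of 16 metalloproteinase genes with a window, 6 of 25 in the coagulation list and 4 of 24 in the NRF2 list. The acute phase list, most of which rose, held them in 7 of 23 genes, and the actin, tubulin and keratin list in 5 of 28. Hamp, which rose, is 1 of these acute phase genes, and the letters are unmarked in its window above. A link between these letters and the direction of change was not tested. The antioxidant response element, with the letters TGACNNNGC that can overlap an AP-1 match, was in 12.4% of all windows, in 16.6% of the genes tested and in 9 of the 24 NRF2 genes. Capitals mark TGANTCA matches, which begin at position -35 from the start in Mmp13 (chr9:7272264-7272563, plus strand), -69 in Plaur (chr7:24462233-24462532, plus strand), -95 in Anxa2 (chr9:69453433-69453732, plus strand), and -102 and -45 in Srxn1 (chr2:152105274-152105573, plus strand).
Mmp13: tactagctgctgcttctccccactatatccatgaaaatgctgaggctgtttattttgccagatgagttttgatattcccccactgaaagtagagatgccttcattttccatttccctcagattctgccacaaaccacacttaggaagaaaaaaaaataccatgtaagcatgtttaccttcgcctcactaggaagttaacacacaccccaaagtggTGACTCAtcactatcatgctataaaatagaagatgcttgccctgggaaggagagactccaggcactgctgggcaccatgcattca
Plaur: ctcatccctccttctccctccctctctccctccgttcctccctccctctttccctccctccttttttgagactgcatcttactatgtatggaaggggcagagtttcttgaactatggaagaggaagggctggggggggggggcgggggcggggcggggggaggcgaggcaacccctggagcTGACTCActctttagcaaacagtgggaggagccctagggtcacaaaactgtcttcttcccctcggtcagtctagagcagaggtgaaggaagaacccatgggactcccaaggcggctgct
Anxa2: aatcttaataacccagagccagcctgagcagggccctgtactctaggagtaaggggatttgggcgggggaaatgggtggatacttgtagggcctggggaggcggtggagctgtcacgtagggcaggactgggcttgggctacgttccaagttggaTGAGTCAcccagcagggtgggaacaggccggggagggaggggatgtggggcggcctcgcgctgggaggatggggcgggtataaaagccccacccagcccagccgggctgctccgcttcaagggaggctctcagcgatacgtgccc
Srxn1: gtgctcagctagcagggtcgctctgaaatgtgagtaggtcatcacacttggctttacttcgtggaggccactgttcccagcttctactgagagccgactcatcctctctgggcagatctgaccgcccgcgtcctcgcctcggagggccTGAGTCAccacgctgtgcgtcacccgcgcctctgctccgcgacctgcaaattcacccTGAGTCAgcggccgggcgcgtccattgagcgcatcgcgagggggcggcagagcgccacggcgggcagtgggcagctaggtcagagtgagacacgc
AP-1 is formed by Fos and Jun proteins, which are immediate early genes. Of the immediate early list 9 of 28 fell and 3 rose (median log2 fold change -0.31). Fosl1 had normalized counts of 25.2, 14.8 and 19.7 in the saline livers and 2.36, 0.85, 0 and 0 in the treated livers (log2 fold change -3.70 ± 0.62 SE, adjusted p = 3.0e-04), with treated livers at or near 0. Klf6, a factor induced in injured liver, fell, with a log2 fold change of -1.63 (adjusted p = 1.4e-05) and Dusp6, a brake on ERK, with -1.17 (adjusted p = 1.0e-04), while Ier2 rose by 0.78 (adjusted p = 2.0e-04).

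Markers of the cells that make matrix fell with it. Of stellate cell markers 13 of 19 fell and 0 rose (median log2 fold change -0.92), and their summed normalized counts were 20610 to 24606 in the saline livers and 10977 to 13808 in the treated livers. Pdgfrb, the growth factor receptor of activated stellate cells, had normalized counts of 737, 881 and 722 in the saline livers and 342, 239.7, 285 and 214 in the treated livers (log2 fold change -1.54 ± 0.19 SE, adjusted p = 1.9e-05). Cygb, which marks stellate cells also at rest, fell, with a log2 fold change of -1.38 (adjusted p = 3.6e-04) and Nes with -1.31 (adjusted p = 4.9e-04). Dcn fell by 0.80 log2 units and did not pass without saline replicate 3 (log2 fold change -0.72, adjusted p = 0.055), and Acta2, the smooth muscle actin of myofibroblasts, gave a log2 fold change of -0.94 (adjusted p = 0.077). Of TGF-beta ligands, receptors and targets 18 of 28 fell and 1 rose (median log2 fold change -0.67), and 10 fell without saline replicate 3. Tgfb2 fell, with a log2 fold change of -1.77 (adjusted p = 4.2e-04), the activin chain Inhbb with -1.47 (adjusted p = 1.1e-04) and the receptor Tgfbr2 with -0.97 (adjusted p = 2.6e-04). Tgfb1 gave a log2 fold change of -0.36 (adjusted p = 0.33).

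Duct-like cell markers had the lowest median of the 59 lists. Of 21 cholangiocyte and ductular reaction markers tested, 19 fell and 0 rose, with a median log2 fold change of -2.24. Per liver the medians were -0.72, 0.19 and 0.53 in the saline livers and -1.67, -2.0, -2.37 and -2.36 in the treated livers, so that saline replicate 1 was the lowest saline liver and still above every treated one. Without treated replicate 1 the list had 0 higher and 20 lower (median -2.34). The summed level, 67418 to 92228 in the saline livers and 53586 to 84075 in the treated livers, overlapped. It also contains Cp, a hepatocyte product that gave a log2 fold change of 0.13 (adjusted p = 0.77). Cd24a, a surface marker of progenitor-like cells, had normalized counts of 276, 519.9 and 655 in the saline livers and 155, 118, 67.7 and 87.5 in the treated livers (log2 fold change -2.14 ± 0.31 SE, adjusted p = 8.9e-05). Sox4, which with Sox9 shapes bile ducts, fell, with a log2 fold change of -2.24 (adjusted p = 5.2e-06), Elf3, an epithelial factor, with -2.29 (adjusted p = 2.7e-05) and Krt19, the duct keratin, with -1.82 (adjusted p = 0.0021). Prom1 fell by 1.77 log2 units and did not pass without saline replicate 3 (log2 fold change -1.41, adjusted p = 0.068). Of portal fibroblast and mesothelial markers 9 of 15 fell and 0 rose (median log2 fold change -1.28), but 4 and 5 fell without saline replicates 2 and 3.

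H19 had the largest fall among genes with a mean of at least 150 normalized counts and no overlap. It is an imprinted non-coding RNA of fetal liver that is almost silent in healthy adult hepatocytes. H19 (chromosome 7, 142575529 to 142578143, GRCm38) had normalized counts of 153, 549.5 and 412 in the saline livers and 14.9, 5.95, 7.18 and 6.73 in the treated livers (log2 fold change -5.16 ± 0.51 SE, adjusted p = 1.7e-06). ND saline livers had 4.27 ± 1.42. The saline livers varied among themselves by more than the treated livers did. Over the list of fetal and imprinted genes 6 of 16 fell and 1 rose (median log2 fold change -1.05).

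Signals and structural genes of injured epithelium fell too. Nrg1, a ligand of ERBB receptors, had normalized counts of 406, 321 and 361 in the saline livers and 44.1, 30.6, 21.6 and 29.1 in the treated livers (log2 fold change -3.53 ± 0.34 SE, adjusted p = 1.4e-06). Sdcbp2, Fam83a, Ephb2 and Mtmr11, also among the 12 largest falls, had log2 fold changes of -3.80, -3.27, -3.21 and -3.12. Fam83a had normalized counts of 655, 529 and 756 in the saline livers and 82.6, 51.0, 61.6 and 70.6 in the treated livers. Ephb2, an ephrin receptor, had normalized counts of 379.5, 568 and 665 in the saline livers and 52.7, 28.1, 112 and 57.2 in the treated livers. Absence of overlap between the groups was part of the rule that named both. Of actin, tubulin and keratin genes that rise in injured liver 20 of 33 fell and 0 rose (median log2 fold change -0.64). Tubb2a, a beta tubulin, had normalized counts of 13068, 12917 and 13085 in the saline livers and 2311, 3357, 3065 and 2906 in the treated livers (log2 fold change -2.17 ± 0.15 SE, adjusted p = 1.8e-07) and 4214 ± 466 in ND saline livers. Anxa5 and Krt8 fell (log2 fold changes -1.81 and -1.23). Actb fell by 0.43 log2 units, and of the 7 fits that left out a liver only the one without treated replicate 1 kept this call (without saline replicate 3 log2 fold change -0.47, adjusted p = 0.079).

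Genes of cell division were lower in part. Of this list 17 of 38 fell and 0 rose (median log2 fold change -1.01), but 7 fell without saline replicate 2, 5 without saline replicate 3 and 9 without treated replicate 3, against 23 without treated replicate 1 and 27 when scaled by library totals. Per liver the medians were -0.38, 0.13 and 0.27 in the saline livers and -0.32, -0.90, -1.60 and -0.88 in the treated livers, so that treated replicate 1 lay within the saline range. Tpx2, of the mitotic spindle, had normalized counts of 89.3, 169 and 166 in the saline livers and 59.0, 43.3, 21.6 and 30.3 in the treated livers (log2 fold change -1.89 ± 0.41 SE, adjusted p = 0.0024). Ccnd1, the cyclin that starts the cycle in hepatocytes, fell, with a log2 fold change of -1.01 (adjusted p = 3.9e-04), and Mcm2, of DNA replication, with -0.79 (adjusted p = 6.8e-04). Of p53 targets and cell cycle brakes 9 of 26 fell and 2 rose (median log2 fold change -0.25), with 4 falls left without saline replicate 1 or 3 and 5 without saline replicate 2 or treated replicate 4. Tnfrsf10b, the death receptor for TRAIL in mice, fell, with a log2 fold change of -2.03 (adjusted p = 3.3e-05) and Plk2 with -1.01 (adjusted p = 1.2e-04). Among cell death genes 6 of 30 fell and 4 rose (median log2 fold change 0.04), with 3 falls left without saline replicate 3 and 11 falls when scaled by library totals. The rises numbered 1 without saline replicate 1 or treated replicate 3 or when scaled by library totals, and 2 without saline replicate 3. Casp12 fell, with a log2 fold change of -1.92 (adjusted p = 6.7e-04).

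**Figure D3:**
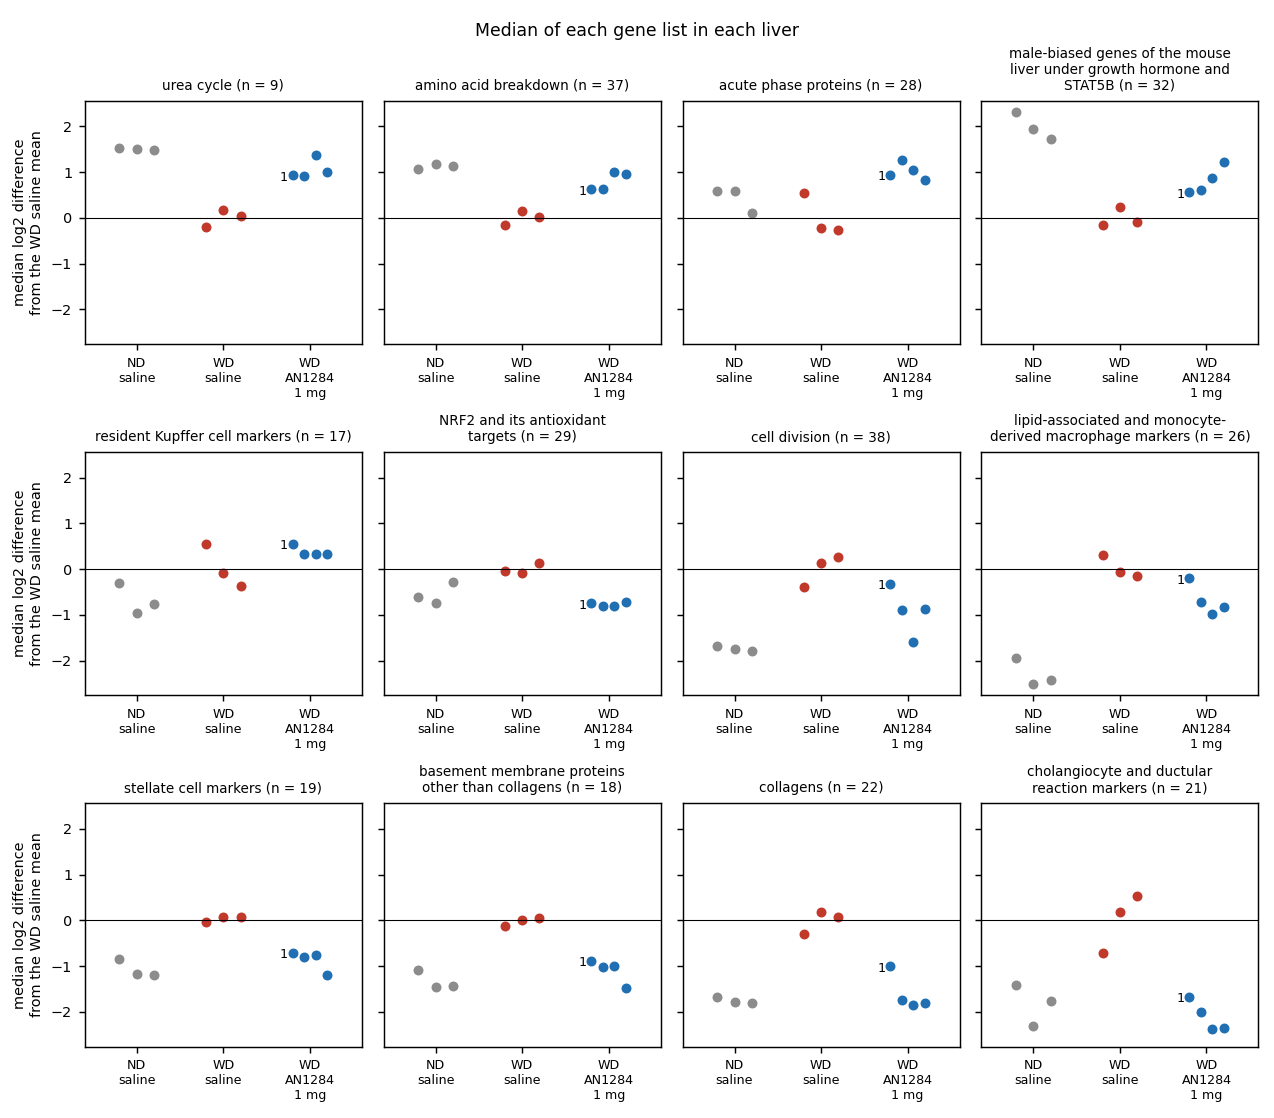
Median log2 difference from the WD saline mean of 12 gene lists in each liver of the ND saline, WD saline and WD AN1284 1 mg groups (points; 1 marks treated replicate 1). Treated and WD saline livers do not overlap for 10 of the lists, and they do overlap for resident Kupffer cell markers and cell division.

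Calls among resident Kupffer cell markers were rises, which depended on single livers, and calls among lipid-associated macrophage markers were falls. Of resident Kupffer cell markers 6 of 17 rose and 0 fell (median log2 fold change 0.42), and of lipid-associated and monocyte-derived macrophage markers 12 of 26 fell and 0 rose (median log2 fold change -0.78). Kupffer cells are seeded before birth and clear particles from blood, whereas the second class arises from monocytes in fatty liver. Cd163, the hemoglobin scavenger receptor of resident cells, had normalized counts of 305, 82.4 and 82.0 in the saline livers and 700.4, 862, 585 and 564 in the treated livers (log2 fold change 2.38 ± 0.40 SE, adjusted p = 4.0e-04). Saline replicate 1 had the highest saline level, and the lowest treated liver was still above it. Clec4f and Timd4, which define Kupffer cells in mice, rose by 0.90 and 1.67, but neither passed without saline replicate 2 or 3 (without replicate 3 log2 fold change 0.63, adjusted p = 0.088 and log2 fold change 1.39, adjusted p = 0.055). The list had 2 rises left without saline replicate 2 or 3, and 4 without treated replicate 1. Its summed level was 35351 to 48803 in the saline livers and 46584 to 53074 in the treated livers, which overlapped. So did its medians per liver, 0.56, -0.08 and -0.37 in the saline livers and 0.56, 0.33, 0.34 and 0.32 in the treated livers.

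Cxcl13 was among the 12 largest rises. It encodes the chemokine that attracts B cells, which macrophages and stromal cells produce. It had normalized counts of 61.1, 8.24 and 14.99 in the saline livers and 564, 484, 183 and 297 in the treated livers (log2 fold change 4.06 ± 0.50 SE, adjusted p = 3.1e-05), and 132 ± 21.1 in ND saline livers. Saline livers were thus below and treated livers above the ND mean. Of B and plasma cell markers 1 of 12 rose and 0 fell (median log2 fold change 0.20), and the 1 rise, Xbp1, which hepatocytes also express, lost its call without saline replicate 2 or 3 or treated replicate 4 (without saline replicate 3 log2 fold change 0.43, adjusted p = 0.087).

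Most calls among the markers of recruited cells were falls. However, 15 of 23 monocyte and neutrophil markers had a log2 fold change above 0. Ccr2, the receptor by which monocytes enter tissue, had normalized counts of 369, 288 and 365 in the saline livers and 169, 122, 58.5 and 44.9 in the treated livers (log2 fold change -1.96 ± 0.43 SE, adjusted p = 0.0032). Treated replicate 1 was the highest treated liver. Cd63, a membrane protein of lysosomes, fell, with a log2 fold change of -2.50 (adjusted p = 1.1e-04), and Ctsk, a collagen-degrading cathepsin, with -2.55 (adjusted p = 1.9e-04). The summed level of the lipid-associated list was 120992 to 128269 in the saline livers and 82510 to 93868 in the treated livers, with no overlap. Adgre1 and Ptprc, which encode F4/80 and the leukocyte antigen CD45, gave log2 fold changes of 0.07 (adjusted p = 0.9) and 0.15 (adjusted p = 0.84). Of monocyte and neutrophil markers 1 of 23 rose and 2 fell (median log2 fold change 0.70), with Vcan and Ccr2 as the falls, and their summed level of 1404 to 2472 in the saline livers and 1132 to 4042 in the treated livers was wide in treated livers. The rise was Il1b at 1.40, whose call was lost without saline replicate 2 or 3 or treated replicate 1 or 4 (without saline replicate 2 log2 fold change 1.02, adjusted p = 0.15).

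Antigen presentation by MHC class II was lower. Of the list 6 of 23 fell and 0 rose (median log2 fold change -0.51). Ciita, its transcriptional activator, had normalized counts of 255, 316 and 238 in the saline livers and 126, 77.3, 87.2 and 62.8 in the treated livers (log2 fold change -1.64 ± 0.30 SE, adjusted p = 5.9e-04). H2-Ab1 had normalized counts of 3144, 5260 and 3994 in the saline livers and 1790, 1279, 1611 and 1293 in the treated livers (log2 fold change -1.45 ± 0.31 SE, adjusted p = 0.0026). H2-Eb1 and H2-Aa, the other class II chains, fell (log2 fold changes -1.62 and -1.40), and Cd74, their chaperone, with -1.30 (adjusted p = 0.0064). The summed level of the list was 24844 to 37476 in the saline livers and 12189 to 18389 in the treated livers, without overlap. Of T and NK cell markers 1 of 26 rose and 0 fell (median log2 fold change -0.18), and Zap70, a kinase of the T cell receptor, rose by 1.03 (adjusted p = 0.0014).

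Inflammatory mediators were mixed. Of chemokines and their receptors 6 of 38 fell and 4 rose (median log2 fold change -0.68), while 10 fell without treated replicate 1 and 14 when scaled by library totals, and 2 rose without any one of saline replicates 1 to 3 or treated replicates 2 or 4 or when scaled by library totals. Of TNF, interleukin-1 and NF-kB genes 8 of 35 fell and 4 rose (median log2 fold change -0.22), with 4 falls left without saline replicate 1 and 5 without saline replicate 3 or treated replicate 3 or 4, against 15 when scaled by library totals. The rises numbered 1 without saline replicate 3 or treated replicate 4 or when scaled by library totals, and 2 without saline replicate 2. Of interferon-stimulated genes 3 of 43 fell and 1 rose (median log2 fold change -0.18), below the shares of all genes in both directions, although 10 fell when scaled by library totals and 1 without saline replicate 1 or treated replicate 4. Cx3cl1, a membrane-bound chemokine, had normalized counts of 109.7, 184 and 176 in the saline livers and 47.2, 25.5, 39.0 and 29.1 in the treated livers (log2 fold change -2.12 ± 0.30 SE, adjusted p = 6.0e-05). Il33, an alarm cytokine of stromal cells, fell, with a log2 fold change of -1.18 (adjusted p = 8.0e-04), Tnip1 with -0.58 (adjusted p = 0.0012), and Il18 rose by 0.80 (adjusted p = 2.7e-04). Ccl2, the monocyte chemokine, had normalized counts of 207, 120.3 and 190.1 in the saline livers and 80.3, 80.7, 84.2 and 46.0 in the treated livers (log2 fold change -1.23 ± 0.45 SE, adjusted p = 0.056), Tnf gave a log2 fold change of -0.12 (adjusted p = 0.91) and Il10 1.12 (adjusted p = 0.27). Il6 was too low to be tested. Nos2, the inducible nitric oxide synthase, had normalized counts of 18.4, 19.8 and 16.6 in the saline livers and 4.72, 2.55, 1.03 and 2.24 in the treated livers (log2 fold change -2.50 ± 0.70 SE, adjusted p = 0.014).

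Of sinusoidal and other endothelial markers 4 of 26 fell and 1 rose (median log2 fold change -0.09), with 2 falls left without saline replicate 2 or treated replicate 3 and 10 when scaled by library totals. Lyve1, the hyaluronan receptor of sinusoids, fell, with a log2 fold change of -1.39 (adjusted p = 3.0e-04) and Flt4, a receptor of VEGF-C, with -0.64 (adjusted p = 0.0041). Plvap and Cd34, which appear when sinusoids become capillary-like, fell (log2 fold changes -0.58 and -0.94), and both calls were lost without saline replicate 2 or treated replicate 3, that of Plvap also without saline replicate 1 and that of Cd34 also without saline replicate 3 or treated replicate 4. Without saline replicate 2 neither passed (Plvap log2 fold change -0.55, adjusted p = 0.065, Cd34 log2 fold change -0.81, adjusted p = 0.084).

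Stress programmes other than NRF2 had fewer calls. Of ER stress genes 3 of 29 fell and 1 rose (median log2 fold change -0.11), and 7 fell when scaled by library totals. Eif2ak3, the sensor PERK, fell, with a log2 fold change of -1.15 (adjusted p = 2.7e-05) and Ddit3, the factor CHOP, with -0.97 (adjusted p = 0.009). Of heat shock proteins 5 of 15 fell and 1 rose (median log2 fold change -0.13), with 3 falls left without saline replicate 2 or 3 and 9 falls when scaled by library totals, and Hspa1a fell, with a log2 fold change of -1.91 (adjusted p = 0.004). In the respiratory chain 11 of 51 rose and 0 fell (median log2 fold change 0.32), but the number that rose was 0 without saline replicate 1 or when scaled by library totals, 1 without treated replicate 3 or 4, 3 without saline replicate 3, 5 without treated replicate 2 and 22 without treated replicate 1. Of the cytosolic ribosomal proteins 1 of 54 rose and 0 fell (median log2 fold change 0.26). The ribosomal gene that passed, Rpl22, did so by 0.38 and lost its call without saline replicate 1 or 3 or treated replicate 2, 3 or 4, while 8 ribosomal genes rose without treated replicate 1.

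The same dose was also given to mice on the ND, which allows the dependence on diet to be tested. ND AN1284 1 mg against ND saline gave 427 higher and 256 lower genes, and for 3044 of 14743 genes (20.6%) the effect differed between the diets, 1385 of them more positive and 1659 more negative on the WD. The effects share no library. On the WD the median of amino acid breakdown was 0.80 and on the ND -0.16, and the effect differed between the diets for 29 of its 37 genes. For the urea cycle the medians were 1.14 and -0.42, with a difference for 8 of 9 genes, and for cholangiocyte markers -2.24 and 0.15 (16 of 21). For collagens they were -1.67 and 0.09 (14 of 22), and for NRF2 targets -0.76 and -0.23 (15 of 29). Acute phase genes had medians of 1.02 and 0.27, and the effect differed for 9 of 28. Of heat shock genes 9 of 15 differed, with a median of -0.13 on the WD and -1.0 on the ND.

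Genes with the lowest p for this difference, among those with a mean of at least 150 normalized counts, had estimates of opposite sign on the 2 diets. Not all of the ND estimates passed a test of their own. The effect on Nrg1 was -3.53 ± 0.34 on the WD and 1.24 ± 0.36 on the ND (difference -4.76 ± 0.50 SE, adjusted p = 1.8e-05). For Cyp2c37 it was 2.32 ± 0.21 on the WD and -0.71 ± 0.23 on the ND (difference 3.03 ± 0.31 SE, adjusted p = 1.8e-05), and for Sult2a8 2.25 ± 0.19 on the WD and -0.64 ± 0.20 on the ND (difference 2.89 ± 0.28 SE, adjusted p = 1.0e-05). Kyat1, a transaminase of the kynurenine pathway, had 1.65 ± 0.16 on the WD and -0.48 ± 0.17 on the ND (difference 2.13 ± 0.23 SE, adjusted p = 1.8e-05). Il1rap, the accessory chain of the interleukin-1 receptor, had 1.01 ± 0.10 on the WD and -0.42 ± 0.11 on the ND (difference 1.43 ± 0.15 SE, adjusted p = 1.8e-05), and S1pr2, a sphingosine 1-phosphate receptor that bile acids also engage, -1.05 ± 0.14 on the WD and 1.08 ± 0.15 on the ND (difference -2.13 ± 0.20 SE, adjusted p = 1.0e-05). Among the genes of this paragraph, the effect on the ND passed its own test for S1pr2 (adjusted p = 4.5e-04) and Il1rap (adjusted p = 0.033). That test is not given here for the other genes of lowest p. Pdk4 had -2.59 ± 0.20 on the WD and 0.24 ± 0.21 on the ND, and on the ND it did not pass (adjusted p = 0.57). These genes were selected by the p of the difference, so their values are a description.

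**Figure D4:**
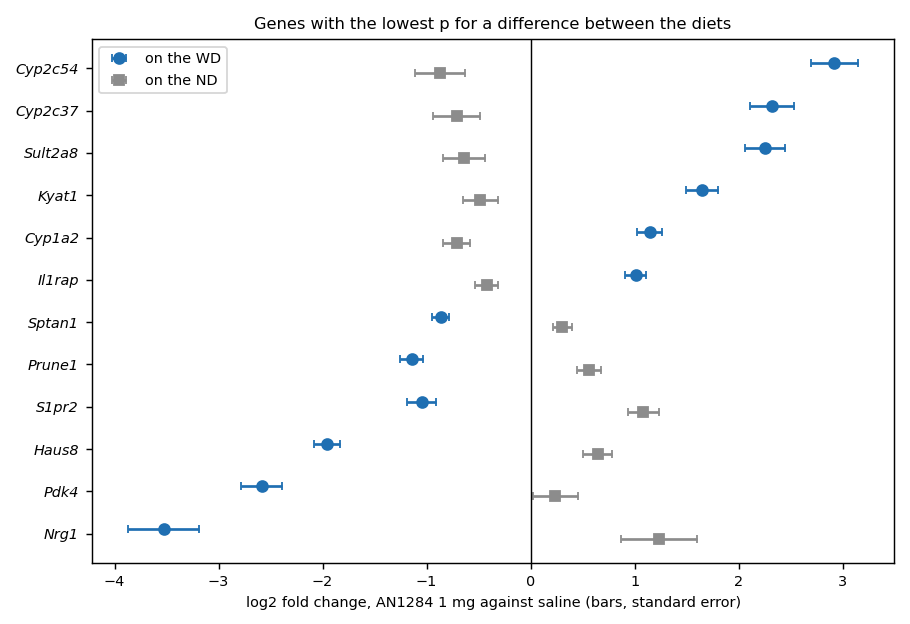
Log2 fold change of AN1284 1 mg against saline, with its standard error, for the 6 genes of lowest p in each direction of the difference between the diets, on the WD (n = 4 and 3) and on the ND (n = 3 and 3). The WD and ND estimates lie on opposite sides of 0 for all 12 genes, from Cyp2c54 at 2.92 on the WD to Nrg1 at -3.53.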

How the data were processed

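Poly-A RNA of 19 mouse livers was sequenced from stranded libraries. According to the methods and the submitters' processing notes, adapters were removed with cutadapt 1.18, TopHat2 2.1.1 placed the reads on the GRCm38 genome, and HTSeq 0.6.0 summed them by gene. The deposited raw counts are whole reads per gene, and the deposited normalized counts are these counts as the authors scaled them, with the size factors of DESeq2 1.22.1. The table holds 54838 genes, of which 20433 have a normalized value (summed count of at least 10) and complete raw counts. Another 6252 carry a question mark in place of raw counts. Because of these marks the columns were not taken as plain counts, and count models were not run. Limma voom on the raw counts was run only as an alternative. Fold changes and p-values of the authors' own comparisons were not used. Unmatched sample columns numbered 0.

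Log2(normalized count + 1) was fitted with limma 3.58.1 (R 4.3.3, trend and robust) over 19 libraries in 6 groups, for the 14743 genes with at least 10 in at least 3 libraries, with Benjamini-Hochberg adjustment and a threshold of 0.05. All p-values are two-sided and come from this fit, or, where a liver is said to be left out, from the same fit without it. Each library was taken as 1 mouse, since the sample titles give replicate numbers only. In the main fit the p-values rest on a spread between livers estimated over all 19 libraries in 6 groups. Fold changes of genes near 0 are understated by the pseudocount. Counted reads of 23443573 to 32189581 limit the precision of genes with few reads. No pair of replicates agreed within sampling noise. The 101 gene names shared by more than 1 gene were kept apart by identifier in the fit. Tested genes that shared a name were left out of the gene lists, the ranked genes and the promoter counts by gene.

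The 59 gene lists, the members of the comparison and the tests were chosen with earlier results of these data known. Named genes were the 12 largest rises and falls (mean of at least 150, no overlap), the 4 members of lowest p and the member of highest level in each list, genes whose RNA or protein the study assayed, and the 6 genes of lowest p in each direction of the difference between the diets. Genes named outside this rule are marked in the text, and some genes of the lists are not reported here. Alternatives changed the pseudocount, filter, scaling, test, libraries in the fit, replicate block, and left out each liver in turn. Promoter windows came from RefSeq (GRCm38.p6).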

Additional observations from a re-analysis of the deposited data

Results flagged for a closer look

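In 11 of the 287 named genes, 1 treated liver stood apart from the other 3 by more than Dixon's 95% limit for groups of 4, and chance alone flags about 5% of groups. Treated replicate 1 stood apart in Ly6d (502.8 normalized counts), Sparc (1906), Col4a2 (827.1) and Nags (1615). Treated replicate 2 stood apart in Krt8 (5882) and Scarb1 (6105), treated replicate 3 in Cxcl2 (11.29) and Col12a1 (55.43), and treated replicate 4 in Hnf4a (21838), Clec4f (4421) and Ccl2 (45.97).

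For 12 named genes the effect of AN1284 1 mg differed between the diets in limma's interaction test, and they were chosen by that test. The difference, WD minus ND on the log2 scale, was 3.79 for Cyp2c54 (effect of 2.92 on the WD and -0.87 on the ND), 3.03 for Cyp2c37, 2.89 for Sult2a8, 2.13 for Kyat1, 1.86 for Cyp1a2 (1.15 and -0.71) and 1.43 for Il1rap. It was -4.76 for Nrg1, -2.83 for Pdk4, -2.60 for Haus8 (-1.96 and 0.64), -2.13 for S1pr2, -1.70 for Prune1 (-1.14 and 0.56) and -1.17 for Sptan1 (-0.86 and 0.31).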

How the results depend on the processing

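Scaling by library totals moved the counts of genes past the threshold most, to 720 higher and 4056 lower genes, and to 5333 genes whose effect differed between the diets. All 720 were among the 1520 genes higher with the authors' scaling, and all 1856 lower genes were among the 4056. Among the 287 named genes, 18 lost their call under this scaling (Hpx, Xbp1, Hlf, Nr1d1, Col18a1, Cyp4a32, Ldha, Alb, Cebpa, Mx2, Ctsh, Il1b, Ei24, Atp5h, Sdhb, Atp5g1, Ndufb5 and Rpl22) and 12 gained one, and no named gene that passed changed direction under any alternative run. The medians of 8 of the 59 lists, all within 0.2 of 0, changed sign under this scaling, among them LXR and RXR genes, enzymes that remove reactive oxygen, NAD metabolism and hepatocyte transcription factors. The cause was not tested. Leaving out 1 liver at a time gave 954 to 1785 higher genes, 1204 to 2079 lower genes and 2239 to 3638 genes that differed between the diets, and 3 to 27 named genes lost their call. The single rise in the collagen, metalloproteinase, TGF-beta, interferon, ER stress, heat shock and endothelial lists and the single fall in the acute phase list were each lost without at least 1 of the livers. With the replicate number as a block, 1104 genes were higher, 1393 lower and 2425 differed between the diets, and 19 named genes lost their call. The numbers do not pair the livers, since the deviations of 3 same-numbered pairs correlated at -0.158 to 0.131 and those of 9 other pairs at -0.23 to 0.2. A pseudocount of 0.5 gave 1523 higher and 1832 lower genes and one of 8 gave 1502 and 1991. No filter gave 1369 and 1882, and a minimum of 50 gave 1441 and 1491. Limma voom on the raw counts gave 1486 and 2087, the 7 libraries alone 1464 and 1944, and the 10 WD libraries 1631 and 2088. With 3 and 4 livers, genes of few reads or wide spread could not be resolved, and a miss of the threshold does not show equal levels.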

Other observations

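Enzymes that conjugate foreign and endogenous compounds also differed. Of UDP-glucuronosyltransferases and sulfotransferases 9 of 21 rose and 3 fell, with 1 fall left without saline replicate 1 or 3 or treated replicate 4 and 5 falls when scaled by library totals. Ugt2a3 and Sult1a1, both of the liver, rose by 0.82 and 0.78 log2 units. Of nicotinamide and NAD metabolism 6 of 20 rose and 4 fell, with 2 falls left without saline replicate 3. Acmsd, which diverts the tryptophan pathway away from NAD synthesis, rose by 1.11 (adjusted p = 4.0e-04 in limma), and Nt5e, which makes adenosine outside cells, had a log2 fold change of -0.90 (adjusted p = 8.1e-04). Of lysosomal genes 2 of 31 rose and 8 fell, with 5 falls left without saline replicate 1 and 16 falls when scaled by library totals. The rises numbered 0 when scaled by library totals and 1 in 6 of the 7 fits that left out a liver. Lipa, the acid lipase that frees stored cholesterol, had a log2 fold change of -0.56 (adjusted p = 2.1e-04). Of clock genes 4 of 20 rose and 0 fell, and Tef, a clock-controlled factor, rose by 1.02 (adjusted p = 0.0060). The number that rose was 1 to 5 when single livers were left out and 2 when scaled by library totals, where 3 fell.

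By gene type, 58 of 368 long intergenic non-coding genes rose and 23 fell, 46 of 328 antisense genes rose and 11 fell, and 1352 of 13317 protein-coding genes rose and 1803 fell.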
